A study of Mus musculus with 4 samples.

Results

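The artery to capillary intermediate wells come from mouse ear skin, sorted 1 cell to a well for blood vascular endothelium. Their arterial and capillary marker genes stood at about the same relative level, with venous markers below both. The wells were chosen by scores of these genes. A well had to hold at least 20000 gene reads without spike-ins, at most 8000 detected genes, a read of at least 2 of the endothelial genes Pecam1, Cdh5 and Kdr, and under 100 CPM (gene counts scaled to the gene reads of the well) of any of 5 genes of other cells, the lymphatic Prox1 and Lyve1, the leukocyte Ptprc and the mural Kcnj8 and Pdgfrb. For each kept well an artery score (A), a capillary score (C) and a vein score (V) were the means, over 8 genes each, of the z value of log2(CPM + 1) taken within the replicate. Wells with V lowest and A and C less than 0.25 apart were the intermediate wells. The rule took 81 of 1536 wells, or 81 of the 631 wells that passed the filters.

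All wells came from 1 group of wild-type animals, with no treatment and no genetic change: adult female C57Bl/6 mice, 12 to 26 weeks old by the labels (the study's methods give another range), whose blood vascular endothelial cells (BECs) were pooled from the ears of 6 mice. Dissociated ear dermis was stained, and living CD31+ CD45- Lyve1- cells were sorted 1 to a well and sequenced with Smart-seq2, a full-length method without molecular identifiers. The design holds 2 replicates of 2 plates each (A and B), with 384 wells to a plate; whether each replicate had its own 6 mice could not be settled, so the spread between replicates may be technical. The comparison asked here is where wells between the arterial and the capillary scores differ from those on either side.

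Blood leaves arteries through arterioles into capillaries, and endothelial cells change gradually along this path, so that a cell near the arterial end of a capillary can carry genes of both. Arterial endothelium is known for Notch signalling, connexins and elastic matrix genes, and capillary endothelium of skin for the machinery that takes up fatty acids. In the skin, capillaries and venules exchange fluid and cells with the tissue, whereas arterioles control flow.

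Comparisons were made between classes of kept wells that the same scores set. Artery-side wells had V lowest and A at least 0.25 above C (61 wells, 17 in replicate 1 and 44 in replicate 2), and capillary-side wells had V lowest and C at least 0.25 above A (101 wells, 76 and 25). Vein-high wells had V at least 0.25 above both (135 wells, 69 and 66), and 253 kept wells met none of these rules. The intermediate wells numbered 16 (plate A) and 18 (plate B) in replicate 1, and 13 (plate A) and 34 (plate B) in replicate 2. As a share of kept wells this was 10.3% (95% exact binomial interval 5.98 to 16.1), 9.94% (6.00 to 15.3), 9.03% (4.89 to 14.9) and 22.7% (16.2 to 30.2). Plate B of replicate 2 therefore stood above the other 3 plates, whose intervals overlapped widely. On that plate 17 of the 34 members had both A and C below 0, the mean of the kept wells, and 10 had both above 0, whereas the other plates held 5, 4 and 4 members below and 9, 13 and 7 above on both scores. By replicate the shares were 10.1% (7.09 to 13.8) and 15.99% (12.0 to 20.7), and since z values were taken within each replicate the shares of the replicates were not tested against each other. All intervals here are over wells and cover counting error only, as wells of a plate are not independent animals, and reads from PCR without molecular identifiers are likewise not independent molecules.

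The member nearest the limit had A and C 0.24998 apart and the nearest well outside 0.25197, 22 of the 81 members lay at 0.20 or more, and 13 wells lay outside at less than 0.30. A further 102 kept wells had A and C within 0.25 of each other but V not lowest. The intermediate wells are thus a range of scores cut at no break, and no clustering was run.

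**Figure D1:**
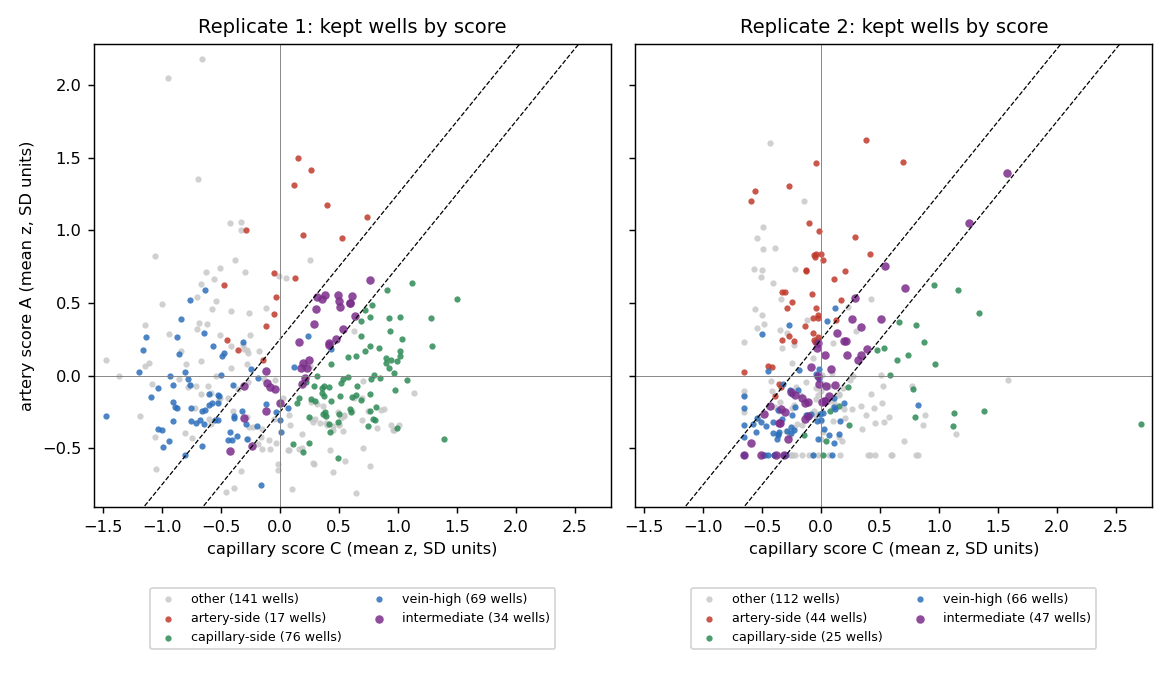
Artery score A against capillary score C of the 631 kept wells, in units of SD of log2(CPM + 1) within a replicate, by class. The dashed lines mark a difference of 0.25, and the intermediate wells lie between them both above and below 0, with 39 wells above 0 on both scores and 30 below 0 on both.

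The label of an artery to capillary intermediate held for only some of these wells. Equal scores can be equally high or equally low. Both A and C were above 0, the mean of the kept wells, in 22 of 34 members in replicate 1 (64.7%) and 17 of 47 in replicate 2 (36.2%). Both were below 0 in 9 of 34 (26.5%) and 21 of 47 (44.7%), and the other 12 members had mixed signs. Median A and C were 0.22 and 0.27 in replicate 1, against -0.07 and -0.02 in replicate 2.

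The same 16 genes can be counted instead of averaged, which describes the choice and adds no support to it. At least 1 of the 8 artery genes and 1 of the 8 capillary genes reached 50 CPM in 28 of 34 members in replicate 1 and in 26 of 47 in replicate 2. No member of replicate 1 lacked both kinds, while 9 members of replicate 2 did, 8 of them among the 21 wells with both scores below 0. Carrying both kinds of gene was not particular to the intermediate wells: 17 of 17 and 35 of 44 artery-side wells, 68 of 76 and 18 of 25 capillary-side wells and 52 of 69 and 22 of 66 vein-high wells did so too.

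Levels below are CPM of the reads summed over the wells of a class on a plate. Values for 4 plates are given in the order plate A and plate B of replicate 1, then plate A and plate B of replicate 2. Wells with more reads weigh more in such a sum. How many of all genes lay on 1 side on each plate is not given here. The genes of the scores and filters chose the wells, and their values are a description with no test.

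Of the 4 genes named as markers of these wells, the arterial pair was low and patchy. Gja4 (ENSMUSG00000050234, chr4:127311421-127314039, minus strand, GRCm38), the connexin that couples arterial endothelial cells, stood at 7.77, 161, 101 and 74.1 CPM in the intermediate wells. Artery-side wells held 176, 767, 317 and 611 CPM of Gja4, above the intermediate wells of the same plate on all 4 plates. Against capillary-side wells, Gja4 differed by 0.59 in replicate 1 and by -0.83 in replicate 2 on the log2 scale. Gja4 had a read in 29 of 34 and 14 of 47 members, and a single well gave 61.7% and 43.5% of its reads in the replicates.

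Sema3g (ENSMUSG00000021904, chr14:31217860-31230352, plus strand), a secreted guidance protein of arterial endothelium, stood at 1.55, 6.12, 4.85 and 23.8 CPM. It had a read in only 7 of 34 and 9 of 47 members, and artery-side wells held 36.6, 69.6, 13.2 and 140 CPM. Most intermediate wells thus had no read of Sema3g. Against capillary-side wells it differed by -1.62 in replicate 1 and by 5.22 in replicate 2 on the log2 scale. Neither arterial marker was thus above the capillary side in both replicates.

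The capillary pair was plainly detected. Gpihbp1 (ENSMUSG00000022579, chr15:75596628-75599481, plus strand), which carries lipoprotein lipase to the capillary lumen, stood at 1506, 1558, 155 and 260 CPM and had a read in 34 of 34 and 31 of 47 members. Capillary-side wells held more on each plate, 1999, 2157, 792 and 439 CPM. Against artery-side wells, with 934, 1220, 298 and 329 CPM, the intermediate wells were higher on both plates of replicate 1 and lower on both plates of replicate 2.

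Rgcc (ENSMUSG00000022018, chr14:79288756-79301645, minus strand), a regulator of the cell cycle that is a common capillary marker, stood at 623, 712, 85.9 and 179 CPM. Capillary-side wells held 1025, 1215, 241 and 221 CPM. Both capillary markers lay lower in replicate 2 than in replicate 1 in all classes that carry them, as can be seen in the map of score genes.

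The other score genes were uneven. Sox17, a transcription factor of arterial fate, stood at 616, 398, 306 and 269 CPM, against 487, 1203, 1062 and 732 in artery-side wells. Fbln5, an elastic fibre protein, was at 237 and 142 CPM in replicate 1 but at 2.91 and 1.15 in replicate 2, where artery-side wells held 800 and 573. Hey1, a Notch target, was at 780, 426, 121 and 128 CPM, and Efnb2, the arterial ephrin, at 167, 54.3, 33.0 and 23.2 CPM. The kinase gene Bmx (1.94, 43.2, 163 and 183 CPM) ran the other way, higher in replicate 2, and the connexin gene Gja5 stayed at or under 10.6 CPM on each plate. Sox17 and Hey1 thus stood at 121 CPM or more on all 4 plates, and the other artery genes were at 10.6 CPM or less on at least 1 plate, except Efnb2.

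Among capillary genes, Cd36, the fatty acid receptor, was at 4968, 3799, 242 and 913 CPM and Cd300lg at 2078, 1387, 1033 and 1525 CPM. Timp4, a protease inhibitor, was at 1157 and 1242 CPM in replicate 1 and at 20.4 and 44.7 CPM in replicate 2. The water and glycerol channel gene Aqp7 (567, 440, 0.485 and 35.7 CPM) and Btnl9 (181, 63.5, 1.94 and 47.2 CPM) were likewise higher in replicate 1. Against artery-side wells, Aqp7 was lower in both replicates, by -0.16 and -1.45 on the log2 scale. Cd36 differed from them by 0.13 and 0.11, and Timp4 by 1.04 and -1.02. Aqp7, Cd36 and Timp4 were lower than in capillary-side wells in both replicates. Car4, the membrane carbonic anhydrase, reached 51.6 CPM on plate B of replicate 1 and 3.497 CPM or less elsewhere, against 39.6 to 390 CPM in capillary-side wells.

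Of the 8 vein genes, 5 were near the floor and 3 were not. The selectin genes Selp and Sele stood at or under 13.1 and 6.50 CPM on each plate, against 929 to 2461 and 553 to 2573 CPM in vein-high wells. Ackr1, a chemokine-binding receptor of venules, was at or under 10.2 CPM, Il1r1 at or under 6.61 CPM and Bst1 at or under 0.384 CPM. Vwf, which is not restricted to veins, stayed at 294, 272, 423 and 638 CPM. Ephb4 was at 178, 158, 71.4 and 42.8 CPM, and Lrg1 ranged from 3.45 to 358 CPM.

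**Figure D2:**
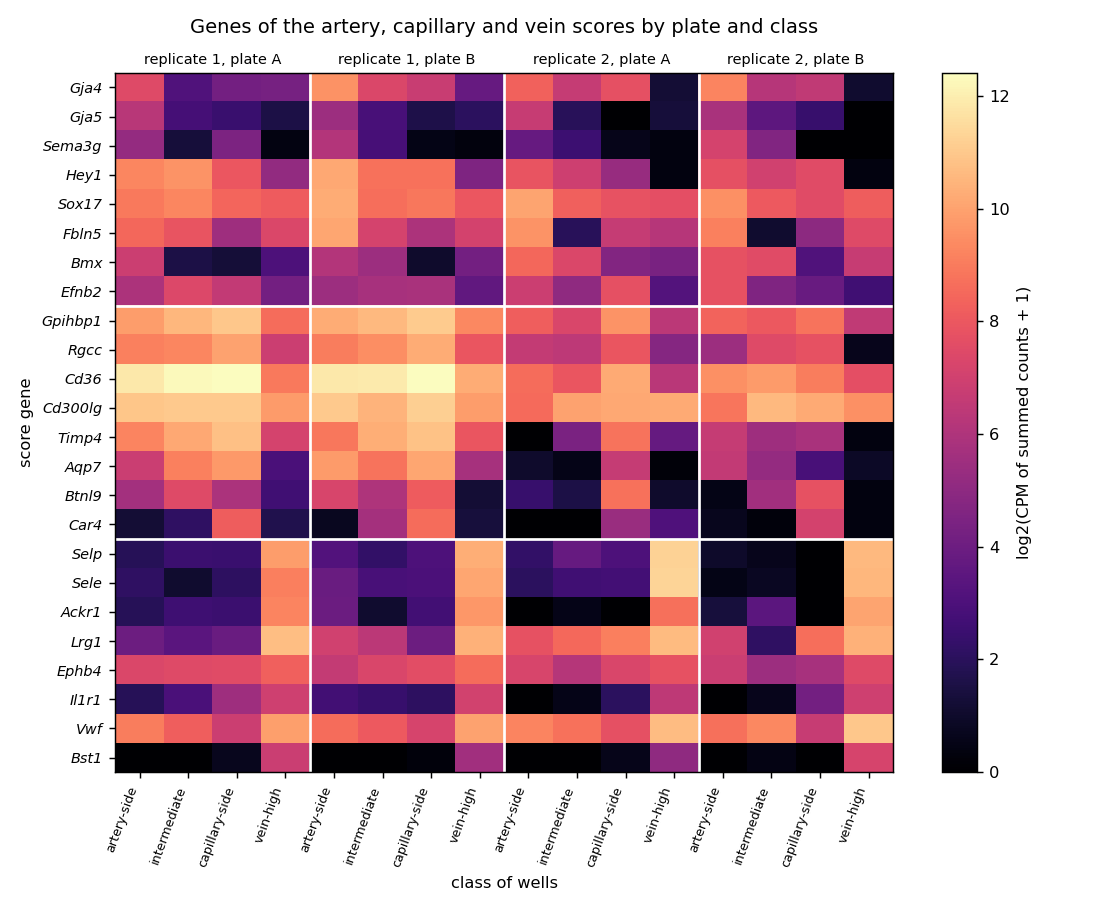
Levels of the 24 score genes in each class on each plate, as log2(CPM of summed counts + 1), with the 8 artery genes on top, the 8 capillary genes in the middle and the 8 vein genes below. The vein genes Selp, Sele and Ackr1 are bright only in vein-high columns, and the capillary genes Timp4 and Aqp7 are far darker in replicate 2, at 20.4 to 44.7 and 0.485 to 35.7 CPM in the intermediate wells.

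In replicate 2 the members with low scores had lower medians of depth and endothelial reads, with overlapping ranges. Intermediate wells held a median of 129638 gene reads (42850 to 366289) in replicate 1 and 123565 (21204 to 396352) in replicate 2, with medians of 4188 and 2636 detected genes. The plates held 31864976 to 74739095 gene reads each, with medians of 40324 to 182926 reads a well over all wells. Thinned to 20000 reads a well, the members had medians of 2186 and 1648 genes. Artery-side wells had medians of 2191 and 1677, capillary-side wells of 2347 and 1703 and vein-high wells of 2974 and 1873. The highest member had 3827 and 3331 genes in the replicates. No doublet caller was run, and wells with more than 1 cell were not tested for.

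In replicate 2 the 17 members with both scores above 0 had a median of 180870 gene reads, 1376 spike-in reads and a summed Pecam1, Cdh5 and Kdr level of 2997 CPM. The 21 with both below 0 had 68759 gene reads, 3063 spike-in reads and 283 CPM. Mitochondrial reads had medians of 2.13% (1.14 to 13.2) and 5.41% (0.042 to 45.9) of gene reads. Gene reads per spike-in read had medians of 141 (20.1 to 564) and 26.2 (3.97 to 374). Replicate 1 showed a smaller gap, with endothelial sums of 4162 and 3735 CPM and 140344 and 105079 gene reads. Gene reads ran from 21212 to 396352 in the members of replicate 2 with both scores below 0 and from 21204 to 349139 in those with both above, so the difference was one of medians, and the part of depth in the scores was not tested.

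**Figure D3:**
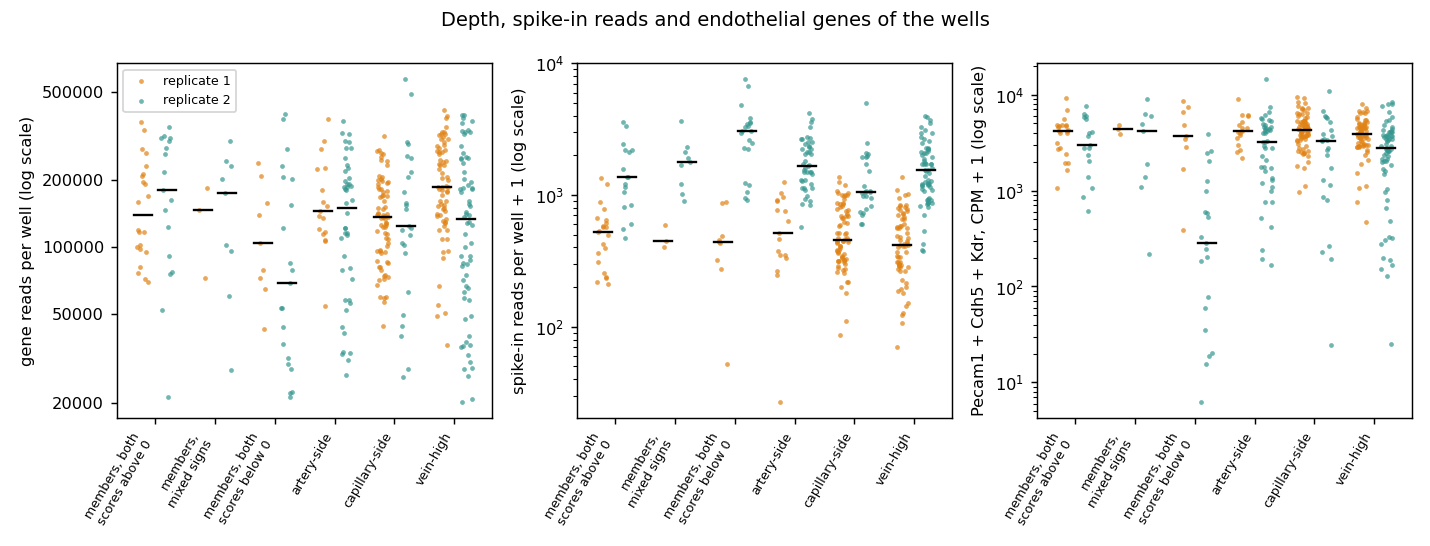
Gene reads, spike-in reads and summed CPM of Pecam1, Cdh5 and Kdr for each well on log axes, with members split by the sign of their scores; bars are medians. In replicate 2 the members with both scores below 0 sit at medians of 68759 gene reads, 3063 spike-in reads and 283 CPM, with points that overlap the other classes.

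Markers of other cell types were found in some of the same wells. Fibroblast markers (7 genes) summed to 500 CPM or more in 2 of 34 and 7 of 47 members, 5 of the 7 with both scores below 0, against 0 of 17 and 2 of 44 artery-side and 5 of 76 and 1 of 25 capillary-side wells. Their median sum was 106 and 25.3 CPM and the highest 37981 and 14570 CPM, and none of the 7 genes was at 0. In replicate 1 a single member gave 61.3% of the fibroblast sum. Leukocyte markers reached 500 CPM in 1 and 2 members, with a median of 0 and 4 and 5 of the 8 genes at 0. Ptprc, the gene of CD45, had no read in any member, and Lyve1 stayed at or under 8.64 CPM on each plate.

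Mural markers reached 500 CPM in 16 of 34 and 12 of 47 members. This was also common elsewhere, in 44 of 76 and 5 of 25 capillary-side and 7 of 17 and 8 of 44 artery-side wells. Pdgfrb and Kcnj8, which the filter used, had a read in 32 and 34 of the 34 members of replicate 1 but in 12 and 9 of the 47 of replicate 2. Lymphatic markers reached 500 CPM in 1 and 6 members, 5 of the 6 with both scores below 0. Among artery-side wells 0 of 17 and 4 of 44 reached it, and among capillary-side wells 3 of 76 and 4 of 25. Prox1 stayed at or under 5.83 CPM on each plate. Keratinocyte and erythroid markers reached 500 CPM in at most 1 member a replicate and glial markers in none. Without the wells of any class that held 500 CPM or more of fibroblast or leukocyte markers, a setting added after seeing the data, 70 of the 81 members remained, edgeR again called 0 genes in each of the 4 comparisons below (554 to 881 genes under an unadjusted p of 0.05), and 27 of 28 named fold changes had the same sign. The part of the mural and lymphatic reads was not tested.

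For the comparisons, reads were summed per replicate and class and fitted across all genes with the quasi-likelihood test of edgeR. The wells were chosen by 24 genes of the same libraries, so genes that vary with those scores are not independent of the choice. No gene outside the rule passed an adjusted p of 0.05 in any of the 4 comparisons, of 14898 genes tested. Against artery-side wells the percentage called was 0, with 974 genes under an unadjusted p of 0.05 and a lowest adjusted p of 0.717. Against capillary-side wells it was 0, with 536 genes and a lowest adjusted p of 1. Against vein-high wells it was 0, with 638 genes and a lowest adjusted p of 0.106, and against the mean of both sides it was 0, with 787 genes and a lowest adjusted p of 0.856.

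Other tools gave other counts. From the same sums, DESeq2 called 665 genes against artery-side wells, 243 against capillary-side wells, 217 against vein-high wells and 400 against the mean of both sides, while limma on equally weighted wells called 0, 0, 70 and 0. The median dispersion was 0.931, and reads of many genes came from 1 well of a sum. Gene groups are therefore described by how many members lay on the same side in both replicates, beside the same share over all genes, and edgeR as fitted here called no member of any list.

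Against artery-side wells, the intermediate wells held less of most arterial genes that the rule did not use. Of 26 tested members of the arterial list, 21 were lower in both replicates and 1, Mgp, was higher, where 21.3% of all genes were lower and 25.8% higher. The list's median log2 fold change was -1.37, against 0.09 for all genes. The sides were set by A against C, so arterial and capillary genes outside the rule are not independent of the choice. The 21 included ligands and receptors of the Notch pathway (Dll4, Jag1, Jag2, Notch1, Notch4), the matrix genes Eln, Ltbp4 and Fbln2, and the endothelin gene Edn1. The count was 19 among members with both scores above 0 and 20 without wells holding 500 CPM or more of fibroblast or leukocyte markers, and it was 12 without plate B of replicate 1, on which the artery-side class had 9 wells.

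Dll4, the Notch ligand of arterial and sprouting endothelium, was at 387, 452, 282 and 202 CPM in the intermediate wells and at 828, 632, 1860 and 866 CPM in artery-side wells. Dll4 was lower in the intermediate wells on each plate. The log2 fold change was -1.74 (SE 0.46) with an edgeR adjusted p of 0.717. Capillary-side wells, at 706, 451, 322 and 181 CPM, were not apart from the intermediate wells, and neither were vein-high wells.

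Clu, a secreted chaperone, was at 84.3, 189, 1640 and 939 CPM, against 720, 694, 2829 and 2013 CPM in artery-side wells of the same plates. It was lower on all 4 plates, by -2.47 in replicate 1 and -1.05 in replicate 2 on the log2 scale. Ltbp4, a matrix protein that binds latent TGF-beta, was at 954, 829, 734 and 932 CPM against 846, 1302, 1846 and 1330 CPM, lower on 3 of the 4 plates. Cxcl12, a chemokine of arterial endothelium, did not separate the classes, with 4270, 2429, 2647 and 3175 CPM against 3207, 3796, 3018 and 2843 CPM. Igfbp3, an IGF-binding protein, was at 1074, 1242, 161 and 50.1 CPM, and 52.5% of its reads in replicate 2 came from 1 well.

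Of 23 tested capillary genes outside the rule, 10 were higher than in artery-side wells in both replicates and 1 was lower, where 25.8% of all genes were higher and 21.3% lower. The list's median log2 fold change was 0.23, against 0.09 for all genes. Without plate B of replicate 2, 6 of 22 were higher, near the share of all genes. Aqp1, a water channel, was at 1943, 2178, 1234 and 1012 CPM against 2321, 430, 487 and 681 CPM in artery-side wells, higher on 3 plates of 4. Sparc (6353, 6273, 2155 and 3061 CPM) and Tspan13 (2138, 1824, 1148 and 1511 CPM) differed little from artery-side wells, with log2 fold changes of 0.11 (SE 0.16) and 0.03 (SE 0.20). Fabp4, the fatty acid carrier, was higher in replicate 1 (2207 and 2438 against 1438 and 2032 CPM) and lower in replicate 2 (124 and 331 against 314 and 495 CPM).

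Notch pathway genes as a list had 10 of 17 tested members lower and 3 higher in both replicates, where 21.3% of all genes were lower and 25.8% higher. Notch1, a receptor, was at 295, 186, 244 and 579 CPM against 313, 515, 997 and 679 CPM in artery-side wells, lower on each plate. Hes1, a target gene, was at 223, 380, 290 and 206 CPM against 318, 318, 213 and 247 CPM and did not separate them. Adam10, the protease that cuts Notch receptors, was at 114, 96.3, 120 and 173 CPM against 481, 75.6, 179 and 309 CPM. Of the 10, the genes Dll4, Jag1, Jag2, Notch1 and Notch4 are also in the arterial list. Without plate B of replicate 1 the count was 5 of 16, nearer the share of all genes.

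Immediate early and dissociation genes had 12 of 19 lower and 1 higher in both replicates against artery-side wells. Of all genes, 21.3% were lower and 25.8% higher. The count of 12 did not hold among members with both scores above 0, where it was 3. Fos was at 3922, 4201, 4855 and 2347 CPM against 4531, 3939, 5195 and 3026 CPM, a log2 fold change of -0.24 (SE 0.16). Zfp36 (2746, 2269, 2305 and 1242 CPM), Egr1 (1757, 1570, 2592 and 1314 CPM) and Btg2 (1874, 1087, 1738 and 1097 CPM) differed from artery-side wells by -0.33 (SE 0.22), -0.24 (SE 0.24) and -0.40 (SE 0.28). Each of these differences lay within 2 of its SE, while 2 of the 19 members had an edgeR unadjusted p under 0.05.

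Against capillary-side wells, arterial genes outside the rule had 10 of 26 higher and 4 lower in both replicates, where 23.8% of all genes were higher and 23.8% lower, and a median log2 fold change of 0.35. The 10 included Alpl, Atp2a3, Igfbp3, Kcnn4 and Mecom, and the 4 were Dll4, Jag2, Notch1 and Stmn2, all 4 of which were also lower than in artery-side wells in both replicates. Jag2 differed from capillary-side wells by only -0.00033 on the log2 scale in replicate 1, and Rbpj of the Notch list was higher than both sides in both replicates. With a limit of 0.15 on the score difference 5 were higher. Atp2a3, a calcium pump, had log2 fold changes of -1.37 (SE 0.49) against artery-side and 1.14 (SE 0.49) against capillary-side wells, with both signs alike in both replicates, and a median over wells of at most 4.04 CPM. Its edgeR adjusted p was 0.717 and 1.

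Capillary genes outside the rule had 0 of 23 higher and 6 lower than capillary-side wells in both replicates, with a median log2 fold change of -0.15. The lower count was near the share of all genes, and it was 12 with a limit of either 0.15 or 0.4 on the score difference. Fabp4 was lower in both replicates, by -0.53 and -1.14 on the log2 scale, where capillary-side wells held 3212, 3575, 948 and 312 CPM. Lipid uptake genes had 4 of 20 higher and 8 lower, where 23.8% of all genes were higher and 23.8% lower. Cavin2, a coat protein of caveolae, was at 1848, 1558, 305 and 484 CPM against 2123, 2519, 436 and 949 CPM, lower on all 4 plates with a log2 fold change of -0.57 (SE 0.27). Scarb1, the receptor for high-density lipoprotein, was at 2800, 2878, 2286 and 2478 CPM and higher than in capillary-side wells on 3 of 4 plates.

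Venous genes outside the rule had 9 of 19 higher and 3 lower in both replicates than in capillary-side wells. Of all genes, 23.8% were higher and 23.8% lower. The list had a median log2 fold change of 0.76, against -0.003 for all genes. Il6st, the shared receptor chain of the IL-6 family, was at 381, 618, 629 and 681 CPM against 256, 258, 346 and 247 CPM, higher on each plate. Its log2 fold change was 1.07 (SE 0.26), with an edgeR adjusted p of 1. Apoe (1212, 1184, 950 and 1683 against 925, 737, 1245 and 1132 CPM) and Emcn (694, 1040, 763 and 875 against 798, 931, 747 and 812 CPM) overlapped.

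Plvap, which builds the diaphragms of fenestrae and caveolae, showed opposite orders in the replicates. It was at 1592, 1768, 2636 and 2623 CPM in the intermediate wells. Artery-side wells held 3626 and 2141 CPM in replicate 1 and 1073 and 911 CPM in replicate 2, while capillary-side wells held 1130 and 1045 CPM and then 3862 and 3046 CPM. The intermediate wells lay between the sides on all 4 plates although the sides had changed places.

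Against vein-high wells the venous genes stood apart, and the lowest adjusted p of the comparisons was found. Venous genes outside the rule had 16 of 19 lower and 2 higher in both replicates, where 29.3% of all genes were lower and 22.7% higher, with a median log2 fold change of -1.46. Since V lowest was part of the rule, lower venous genes repeat the choice in other genes of the same wells.

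Icam1 (ENSMUSG00000037405, chr9:21015985-21028817, plus strand), the leukocyte adhesion receptor, was at 53.2, 221, 781 and 110 CPM in the intermediate wells and at 1007, 1125, 2023 and 1150 CPM in vein-high wells. Icam1 was lower in the intermediate wells on each plate. Its log2 fold change of -2.71 (SE 0.31) had an edgeR adjusted p of 0.106. Ehd4, an endosomal trafficking gene, was at 161, 157, 245 and 84.4 CPM against 849, 905, 687 and 1040 CPM, with a log2 fold change of -2.52 (SE 0.37) and an adjusted p of 0.406 (edgeR). Both passed with DESeq2, with limma and in edgeR without a filter on low counts, Icam1 also with thinned wells and Ehd4 with sums per plate.

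Cav1, the structural protein of caveolae, was higher in the intermediate wells than in vein-high wells of the same plate on each plate, at 5048, 5259, 2070 and 2955 CPM against 2856, 2710, 1559 and 1914 CPM. The log2 fold change was 0.83 (SE 0.16), with an edgeR adjusted p of 0.816. Oaz2, which restrains polyamine synthesis, was higher on each plate, at 893, 552, 482 and 365 CPM against 209, 242, 77.4 and 202 CPM. Its log2 fold change was 1.73 (SE 0.30), with an edgeR adjusted p of 0.679. Ctnnal1 (2.33, 29.4, 42.7 and 6.33 against 369, 340, 294 and 562 CPM) and Gm16587 (0, 0, 1.46 and 0 against 110, 142, 288 and 225 CPM) were lower on each plate, with the same adjusted p.

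**Figure D4:**
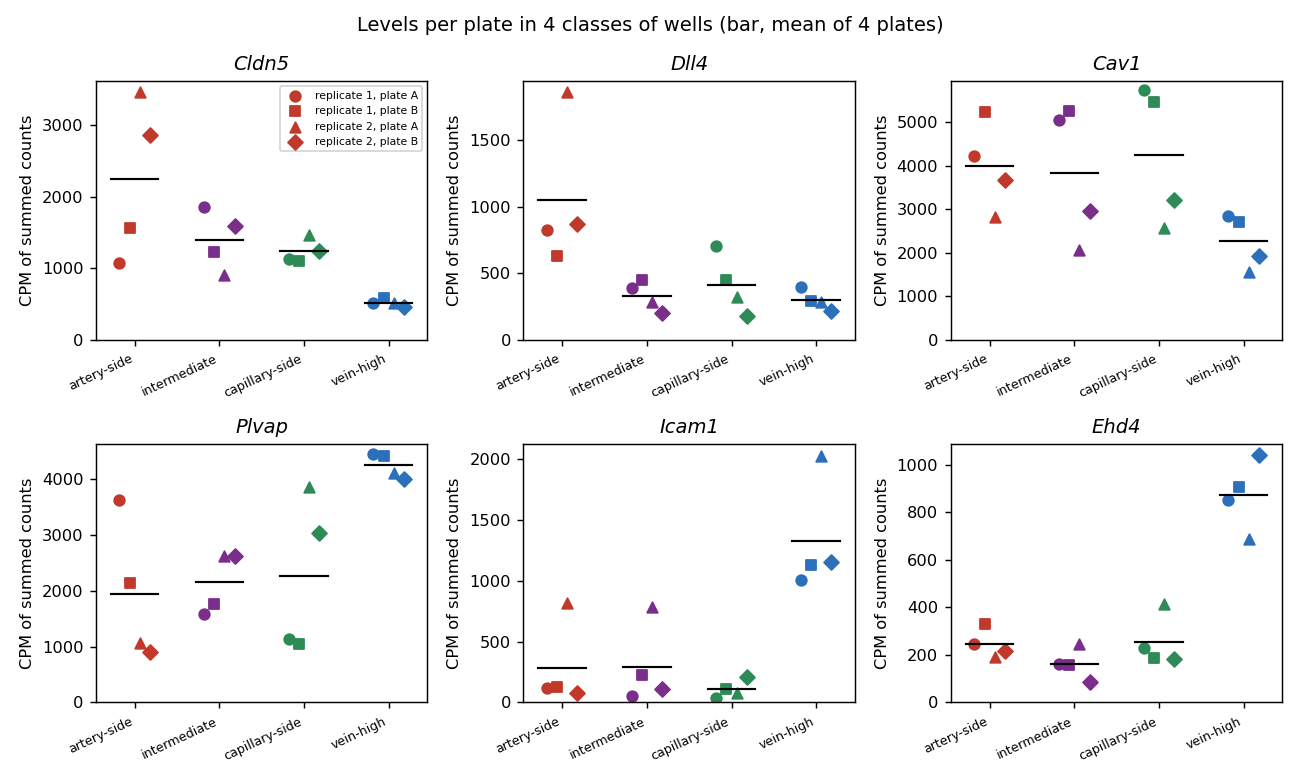
CPM of summed counts for 6 genes in 4 classes of wells, 1 point a plate and a bar at the mean of the 4 plates. Cldn5 and Cav1 lie above the vein-high wells of the same plate on each plate, Icam1 and Ehd4 lie below them, Dll4 lies below artery-side wells, and the Plvap points of the 2 sides change places between the replicates.

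Junction genes hold endothelial cells together: claudins, occludin and ZO-1 form tight junctions, and VE-cadherin with the catenins forms adherens junctions. Against artery-side wells 1 of 24 tested was higher and 7 were lower in both replicates, where 25.8% of all genes were higher and 21.3% lower, with a median log2 fold change of -0.23. Against capillary-side wells 4 were higher and 7 lower, where 23.8% of all genes were higher and 23.8% lower. Against vein-high wells 9 were higher and 4 lower, where 22.7% of all genes were higher and 29.3% lower. The sum of the list had a median of 10977 CPM in the 34 members of replicate 1 and 7385 CPM in the 47 of replicate 2. In the latter it was 10896 CPM with both scores above 0 and 1805 CPM with both below 0.

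Cldn5 (ENSMUSG00000041378, chr16:18776847-18778262, plus strand), the main endothelial claudin, was at 1852, 1226, 903 and 1599 CPM in the intermediate wells. Vein-high wells held 519, 584, 516 and 465 CPM, below the intermediate wells on each plate, and the log2 fold change of 1.52 (SE 0.32) came from 1.53 in replicate 1 and 1.4997 in replicate 2. Its edgeR adjusted p was 0.889. Artery-side wells held 1073, 1562, 3470 and 2867 CPM, so that the difference from them was 0.11 in replicate 1 and -1.18 in replicate 2. Capillary-side wells, at 1135, 1108, 1467 and 1244 CPM, overlapped with the intermediate wells, with a log2 fold change of 0.27 (SE 0.32). The order of vein-high below intermediate was thus the stable part, and the order of intermediate and artery-side was not the same in the replicates.

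Single wells varied widely in Cldn5. The median well of the intermediate class held 1151 CPM in replicate 1 and 176 CPM in replicate 2, while the summed levels of the replicates were of like size. Cldn5 had a read in 34 of 34 and 44 of 47 members.

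Of the other junction genes, Esam, an adhesion molecule of endothelial tight junctions, was at 2292, 1780, 1096 and 1483 CPM, with a log2 fold change of -0.23 (SE 0.23) against artery-side, -0.01 (SE 0.23) against capillary-side and 0.00 (SE 0.23) against vein-high wells. Ctnnb1, beta-catenin, was at 1734, 1357, 960 and 2025 CPM and higher than in vein-high wells by 0.89 (SE 0.26) on the log2 scale, though 0.19 (SE 0.26) and 0.14 (SE 0.26) from the 2 sides. F11r, the gene of JAM-A, was at 829, 774, 569 and 837 CPM, and lower than in capillary-side wells on each plate (1084, 830, 935 and 1266 CPM). Its log2 fold change there was -0.43 (SE 0.26).

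Jam2 (702, 888, 824 and 530 CPM), Jam3 (94.8, 54.7, 329 and 174 CPM) and Tjp1, the gene of ZO-1 (133, 328, 259 and 419 CPM), lay within the range of the other classes' plates, except on 1 plate each for Jam3 and Tjp1. Cdh13, an atypical cadherin, was at 1300, 1523, 1129 and 597 CPM. Cldn15 was sparse, at 104, 170, 233 and 41.6 CPM with a read in 17 of 34 and 8 of 47 members. Cdh5, the gene of VE-cadherin, was part of the filter and stood at 743, 588, 218 and 302 CPM.

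For the remaining lists the counts stand against the shares of all genes given above, which were 25.8% higher and 21.3% lower against artery-side, 23.8% and 23.8% against capillary-side and 22.7% and 29.3% against vein-high wells. Many of the counts were close to those shares. Endothelial transcription factors had 4 of 26 higher and 9 lower than artery-side wells, 4 and 8 against capillary-side wells and 6 and 8 against vein-high wells. Sox18 was at 1316, 1148, 731 and 713 CPM, Epas1, a hypoxia-inducible factor, at 1370, 989, 990 and 651 CPM, Tcf4 at 445, 703, 733 and 612 CPM and Ets2 at 511, 661, 501 and 776 CPM. Sox18 and Epas1 were lower than in artery-side wells by -0.33 (SE 0.23) and -0.53 (SE 0.40), in both replicates.

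The VEGF list, named after its receptors and coreceptors in the plot of lists, also holds the ligand genes Vegfa, Vegfb, Vegfc and Pgf. It had 2 of 11 higher and 5 lower than artery-side wells, 4 and 3 against capillary-side wells and 3 and 1 against vein-high wells, and the 4 higher than in capillary-side wells were the 4 ligand genes. Ptprb, the phosphatase VE-PTP, was at 853, 1441, 425 and 793 CPM and below artery-side wells of the same plate on each plate (1163, 1770, 864 and 1081 CPM). Flt1, a receptor that binds VEGF-A, was at 1144, 650, 583 and 653 CPM, Tie1 at 1222, 660, 252 and 356 CPM and the coreceptor Nrp1 at 821, 619, 191 and 452 CPM. None of the 3 was lower or higher than both sides on all plates.

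Vasomotor and shear genes had 4 of 19 higher and 6 lower than artery-side wells, 4 and 5 against capillary-side wells and 2 and 7 against vein-high wells. Ece1, the enzyme that activates endothelin, was at 547, 513, 412 and 585 CPM and below vein-high wells on each plate (962, 1173, 839 and 1558 CPM), by -0.99 (SE 0.30) on the log2 scale. Ramp2, a partner of the adrenomedullin receptor, was at 818, 1250, 860 and 831 CPM, S1pr1, the sphingosine-1-phosphate receptor, at 759, 742, 274 and 507 CPM and Thbd, thrombomodulin, at 679, 411, 143 and 619 CPM. S1pr1 differed from artery-side wells by 0.02 in replicate 1 and -1.43 in replicate 2 on the log2 scale.

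Matrix and basement membrane genes had 9 of 18 higher and 6 lower than artery-side wells, but 3 higher without the wells rich in fibroblast or leukocyte markers, 3 among members with both scores above 0 and 2 without plate B of replicate 2. The fibroblast gene Col3a1 was at 29.5, 980, 79.1 and 178 CPM in the intermediate and at 34.5, 34.8, 5.82 and 3.06 CPM in artery-side wells. The counts were 2 and 5 against capillary-side wells and 5 and 7 against vein-high wells. Sparcl1 was at 5168, 3910, 4067 and 3933 CPM, above vein-high wells on each plate (3356, 3150, 2564 and 3036 CPM). Col4a1, a collagen of the basement membrane, was at 1543, 866, 291 and 290 CPM and also above vein-high wells on each plate, by 0.96 (SE 0.25) on the log2 scale. Against capillary-side wells it was below on each plate, by -0.34 (SE 0.25).

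Immediate early genes were lower than in vein-high wells for 13 of 19 and higher for 3, and against capillary-side wells 6 were higher and 2 lower. Among members with both scores above 0, 6 were lower than in vein-high wells, and 6 also with wells thinned to 20000 reads. Cell cycle genes had 4 of 16 higher and 4 lower than artery-side wells, 3 and 3 against capillary-side wells and 2 and 6 against vein-high wells. Cdkn1a, a cell cycle inhibitor, was at 262, 393, 466 and 259 CPM, and the replication genes Mcm6 (198, 106, 142 and 132 CPM) and Pcna (43.1, 90.6, 156 and 123 CPM) had medians over wells of 4.42 CPM or less. The inhibitor Cdkn1c had a read in 14 of 34 and 4 of 47 members. Notch genes against vein-high wells had 3 of 17 higher and 8 lower, lipid uptake genes 8 of 20 and 4, and capillary genes outside the rule 11 of 23 and 7. Lipid uptake genes against artery-side wells had 6 higher and 1 lower, and Notch genes against capillary-side wells 3 and 9.

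**Figure D5:**
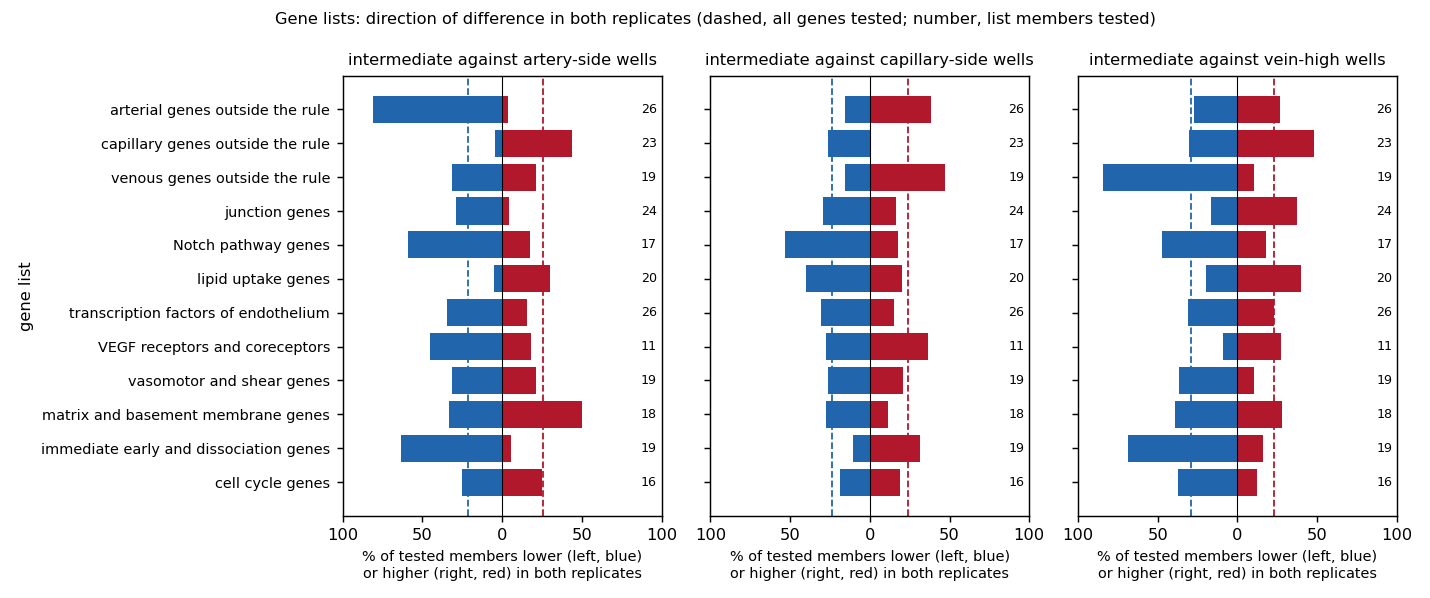
Percentage of tested members of 12 gene lists that were lower (left) or higher (right) in both replicates in the intermediate wells, against 3 classes; dashed lines give the same over all genes tested. The longest bars are the 21 of 26 arterial genes lower than in artery-side wells and the 16 of 19 venous genes lower than in vein-high wells. These genes are not independent of the scores that set the classes.

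Against the mean of both sides, which asks whether a gene left the line between them, 26.8% of all genes were higher and 22.5% lower in both replicates. Arterial genes had 3 of 26 higher and 12 lower there, and Notch genes 3 of 17 higher and 8 lower, with medians of -0.30 and -0.65 on the log2 scale. Venous genes had 7 of 19 higher and 4 lower. The mean was taken on the log2 scale.

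The genes with the lowest unadjusted p and the same direction in both replicates are named as not passing. Against the mean of both sides these were Chst1, Sfrp2, Mindy1, Wif1, Bmp4 and Cxcl1, at an edgeR adjusted p of 0.856. Sfrp2 (2.72, 169, 0 and 141 CPM) and Wif1 (1.55, 153, 0 and 161 CPM), secreted inhibitors of Wnt signalling, each came mostly from single wells, which gave 97.1% and 99.0% of Sfrp2 and 76.3% and 97.1% of Wif1 reads. Col1a1, a fibroblast marker, was high on 1 of the same plates, at 58.7, 2360, 34.5 and 135 CPM. Chst1 (0, 166, 0 and 193 CPM) had 99.8% of its reads in replicate 2 in 1 well.

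Cxcl1, a neutrophil chemokine, was at 298, 102, 354 and 190 CPM, against 15.9, 21.4, 152 and 1.84 CPM in artery-side and 80.2, 62.8, 45.4 and 58.1 CPM in capillary-side wells. It was above both sides on all 4 plates, with a log2 fold change of 2.27 (SE 0.47). In replicate 2, 8 of 47 members had a read, and a single well gave 56.8% of the reads. Bmp4 (54.8, 133, 0 and 145 CPM) had no read on plate A of replicate 2. Mindy1 was below both sides of the same plate on each plate, at 80.4, 17.2, 0 and 53.4 CPM against 80.3 to 354 CPM and 87.8 to 248 CPM.

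Against artery-side wells the genes of lowest p were Rps6kb2, Faf1, Plcd1, Smarcal1, Mindy1 and Bmp4, each at an edgeR adjusted p of 0.717. The first 4 were nearly unread in artery-side wells, at 4.01 CPM or less on each plate, and a single well gave 24.9% to 55.0% of their reads in replicate 1 and 50.8% to 87.6% in replicate 2. Against capillary-side wells they were Gem, Csf2rb2, Nfil3, Chst1, Mindy1 and Slc39a10, at an adjusted p of 1 (edgeR). Csf2rb2, a cytokine receptor chain, was at 124, 154, 646 and 408 CPM against 27.9, 61.7, 56.8 and 116 CPM, above on each plate. Slc39a10, a zinc importer, was at 344, 158, 270 and 739 CPM against 105, 69.7, 258 and 136 CPM, above on each plate.

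The position of the intermediate wells between the sides was read over genes picked in the other replicate, 50 for each side, on a scale where 0 is the capillary-side and 1 the artery-side level. Genes picked in replicate 1 and read in replicate 2 placed the members at 0.37 for artery-side genes and 0.64 for capillary-side genes. Genes picked in replicate 2 and read in replicate 1 placed them at 0.10 for both kinds. In the latter the artery-side genes had turned round, with artery-side minus capillary-side levels of -0.51 on the log2 scale, so their order of the sides did not carry over between the replicates. No steady position can be given from these values.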

How the data were processed

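Single sorted ear dermal BECs were sequenced as 50-base reads on 4 plates. The authors aligned reads to GRCm38 (mm10) with TopHat2 2.1.1, took out duplicates (SAMtools 0.1.18), assigned reads to genes by Subread 1.4.6-p5 and deposited raw counts per gene and well. The annotation release is not given in the sources used here. Symbols and positions came from GENCODE vM21 (GRCm38), which did not match 512 gene identifiers. Of 1536 wells, 1228 passed the read minimum, 1225 also the gene maximum, 1175 the endothelial genes and 631 the other cell types' genes. No 2 files shared a well name and no 2 wells held identical counts.

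Counts were summed per replicate and class (8 sums of 2942585 to 14024771 reads), keeping genes that reached 10 counts in 2 or more sums, and tested by quasi-likelihood in edgeR 4.0.16 (R 4.3.3) with TMM scaling, a term for the replicate and Benjamini-Hochberg adjustment over all genes. Replicate was a block because the classes of a replicate are wells of the same plates. DESeq2 1.42.0 and limma 3.58.1 were alternatives. The fit was also run on simulated data, and the outcome is not given here. The 32 genes of the rule were left out of calls. Named were the score genes, genes past the threshold (none), otherwise the 6 of lowest p in each comparison with 1 direction in both replicates, the 4 members of each list with the highest mean CPM in the members, and 8 junction genes. Genes the text names beside these as list members were chosen after their values were seen. Members and lists were chosen with earlier results of these data known.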

Additional observations from a re-analysis of the deposited data

Results flagged for a closer look

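In 6 of 94 values, 1 plate of the intermediate wells lay far from the other 3, by Dixon's 95% limit for 4 values; chance gives about 1 in 20. The share of kept wells was 22.7% on plate B of replicate 2, next to 10.3%, and 17 of its 34 members had both scores below 0. Car4 was at 51.6 CPM on plate B of replicate 1, next to 3.497 CPM. Gm16587 was at 1.46 CPM on plate A of replicate 2 and at 0 elsewhere. Flt1 was at 1144 CPM on plate A of replicate 1, next to 653 CPM. Ramp2 was at 1250 CPM on plate B of replicate 1, next to 860 CPM. Sparcl1 was at 5168 CPM on plate A of replicate 1, next to 4067 CPM.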

How the results depend on the processing

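The number of genes past the threshold changed with the tool, the weight of wells and the sums. With DESeq2 it was 665 against artery-side wells, 243 against capillary-side wells, 217 against vein-high wells and 400 against the mean of both sides, and 23 of 28 named fold changes passed. Against vein-high wells it was 70 with limma on equally weighted wells, 4 without a filter on low counts, 2 with sums per plate and 5 with wells thinned to 20000 reads. Against artery-side wells it was 2 with a limit of 10 CPM on the genes of other cells. Under that limit 27 wells were intermediate, 1 of them in replicate 1, and 24 of the 27 were among the 81 members. Without the replicate block, 0 genes passed in each of the 4 comparisons, and 28 of 28 named fold changes had the same sign.

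The share of kept wells was 5.93% and 8.503% in the replicates with a score difference under 0.15, 13.9% and 21.8% with one under 0.4, and 5.56% in replicate 1 with the limit of 10 CPM. Leaving out plates gave 9.03% to 22.7% in replicate 2, and leaving out replicates 10.1% to 15.99%. Thinning wells to 20000 reads kept 52 of the 81 members. With the limit of 10 CPM, 11 of 24 arterial, 5 of 16 Notch and 0 of 19 immediate early genes were lower than in artery-side wells in both replicates, 6 of 20 capillary genes were higher than there, and 4 of 24 arterial genes were higher than in capillary-side wells. Venous genes lower than in vein-high wells numbered 14 of 17 both with that limit and with thinned wells.

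These signs turned, on the log2 scale. With the limit of 10 CPM, Mindy1 was at 2.22, 2.28 and 2.25 against artery-side wells, capillary-side wells and their mean, Faf1 at -1.25 against artery-side wells, Slc39a10 at -2.65 and Cldn5 at -0.071 against capillary-side wells, Oaz2 at -0.86 against vein-high wells and Cxcl1 at -1.42 against the mean of both sides. With thinned wells Faf1 was at -0.015 and Nfil3 at -0.26. Chst1 against capillary-side wells was at -2.40 under 0.15 and at -5.48 with z taken within the plate, where it was at -0.14 against the mean of both sides. Cldn5 against that mean was at 0.16 under 0.15, 0.11 under 0.4, 0.014 with both scores above 0 and 0.049 without wells rich in fibroblast or leukocyte markers, a setting chosen after seeing the data. Leaving out a plate or replicate gave Cldn5 -1.18 to 0.11 against artery-side wells, -0.022 to 0.49 against capillary-side wells and -0.57 to 0.28 against their mean.

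The position for artery-side genes picked in replicate 1 was 0.57 under 0.4, -0.48 with both scores above 0 and 0.105 over 25 genes, and for capillary-side genes 1.06 with both scores above 0. For capillary-side genes picked in replicate 2 it was 0.62 under 0.15, -0.32 under 0.4, 1.09 with thinned wells and -0.39 over 25 genes. The cause of these changes was not tested. The fit rested on 2 replicates and 3 residual degrees of freedom, and in edgeR as fitted for the report a difference as large as that of Icam1 against vein-high wells (-2.71) did not pass.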
